A study of Mus musculus with 6 samples.

Results

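Bone marrow and blood cell genes were followed in RNA of the modiolus, the spongy bone at the axis of the cochlea, in which the spiral ganglion neurons (SGNs) lie. The list named 36 genes of neutrophils, red cell precursors and B cells, and its members were the 26 that had a row in the table of counts, out of 33676 genes with a row. They comprised 11 of 14 neutrophil genes, 8 of 11 erythroid genes and 7 of 11 B cell genes. The 10 genes without a row were Camp, Elane and Cebpe among the neutrophil genes, Hbb-bt, Gata1 and Ahsp among the erythroid genes, and Cd79b, Vpreb1, Igll1 and Rag1 among the B cell genes, and Ahsp could not be matched by that symbol. Every annotated transcript was listed for 8 members, and for the other members the counts cover a part of their transcripts.

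All 6 libraries came from C57BL/6 mice, in a control group and a degenerated group with 3 libraries each. By the study's methods the mice were 8-week-old males, the degenerated group received 1 g/kg kanamycin sulfate under the skin followed by 0.4 g/kg furosemide into the peritoneum, which together destroy cochlear hair cells, and the controls received saline. The tissue was taken 30 days later. The labels name the SGN as the cell type, but RNA was taken from the whole modiolus without sorting, and neither the labels nor the methods say whether each library came from its own animal, so p values measure the spread between these libraries only.

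The libraries held between 12480876 and 15549319 counts. A list of 14 SGN genes, all of them tested, summed to 7348 to 16108 CPM per library (counts scaled to the library's total with TMM factors), and its most abundant gene was Snap25, of the synaptic release machinery.

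The modiolus is bone, and the marrow spaces and vessels of bone can hold blood cells at several stages of maturation. Whether the dissected tissue held marrow was not tested. Neutrophils fill their granules in a fixed order as they mature in the marrow, with primary granule enzymes made first, secondary granule proteins next and cytosolic S100 proteins late. Red cell precursors switch on haem synthesis, globins and membrane skeleton proteins and keep globin RNA as reticulocytes in blood, and B cells pass from a stage with a surrogate light chain to one with a complete immunoglobulin on the surface. In bulk tissue, fewer cells of a type and less RNA per cell cannot be told apart.

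The blood genes differed far more between libraries of the same group than between the groups. In 24 of the 26 genes the highest value was in control library 2, and in 20 of them the lowest was in control library 1. For comparison, control library 2 was highest in 17.9% of the 14118 genes tested and control library 1 was lowest in 18.5%. The same 3 libraries (control 2, control 3 and degenerated 3) held the 3 highest values in 23 of 26 members and in 9.82% of all tested genes. The highest library exceeded the lowest by a median of 45.9-fold over the members and by 2.26-fold over all tested genes, and by more than 10-fold in 23 of 26 members and in 11.5% of all tested genes.

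**Figure D1:**
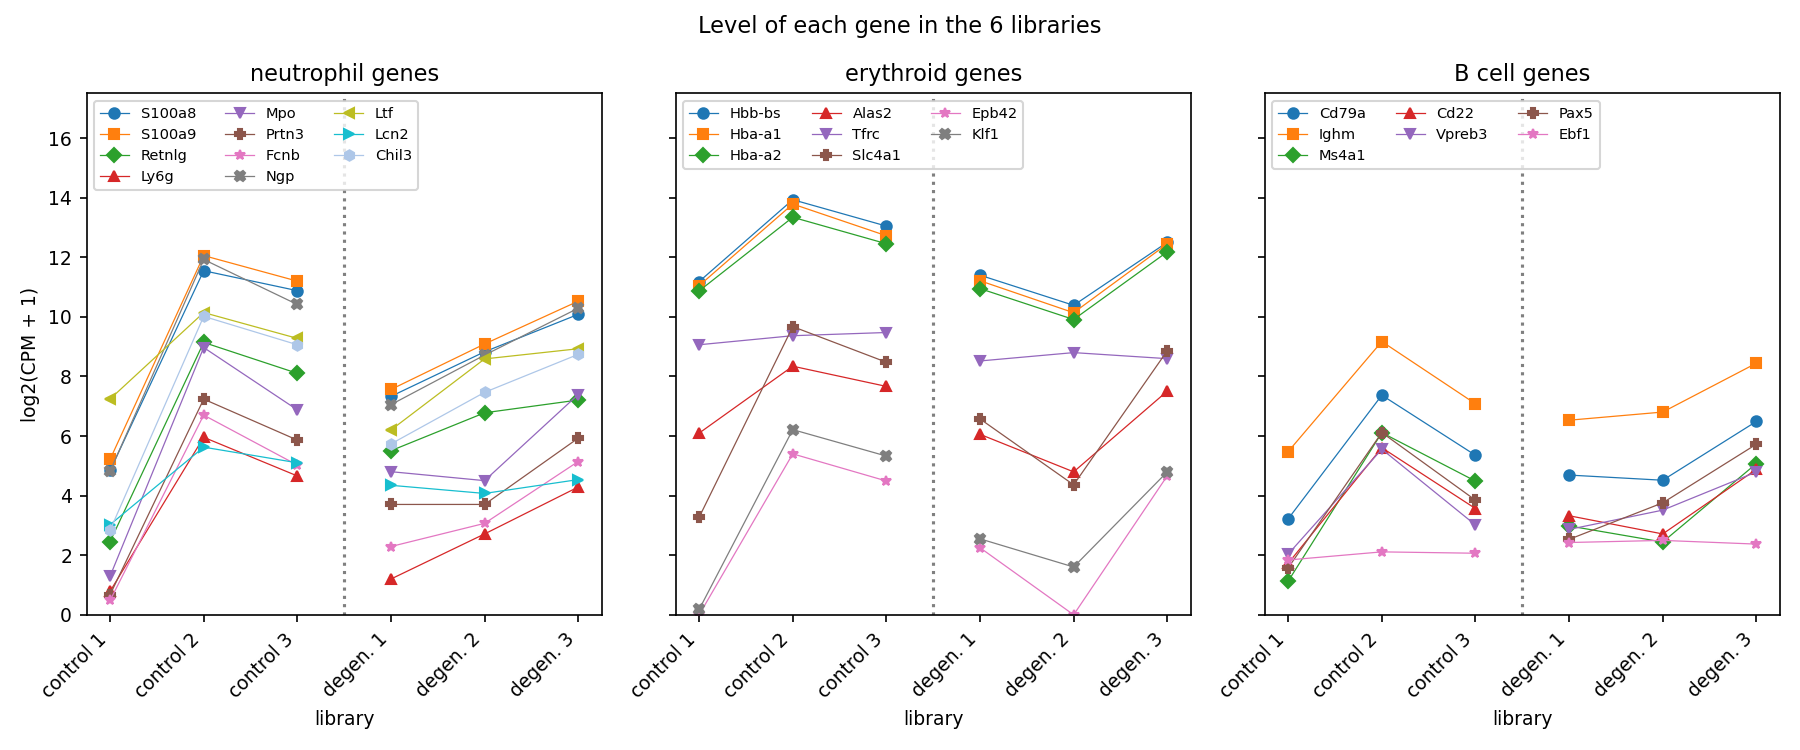
Level of each gene on the log2(CPM + 1) scale (vertical axis) in the 3 control and 3 degenerated (degen.) libraries (horizontal axis), with 1 panel per lineage and 1 symbol per gene. Thin lines join the points of a gene within a group and mark no order in time, and most genes peak in control library 2 and are low in control library 1, whereas Tfrc and Ebf1 stay nearly level.

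The neutrophil genes had the widest range, with a median of 125-fold between the highest and lowest library, against 12.3-fold for the erythroid and 19.7-fold for the B cell genes. S100a8 (chr3:90668978-90670035, GRCm38) encodes the smaller chain of calprotectin, the abundant cytosolic calcium-binding complex of neutrophils, and stood at 27.8, 2999.6 and 1885 CPM in the control and 160.2, 454 and 1086 CPM in the degenerated libraries, each in the order of library 1, 2 and 3. S100a9, the other chain (chr3:90692632-90695721), stood at 36.2, 4266 and 2354 CPM in the control and 188, 544 and 1476 CPM in the degenerated libraries. Both genes were 108-fold and 118-fold higher in control library 2 than in control library 1, the groups overlapped, and the 3 degenerated libraries lay between these extremes. Ly6g, the surface antigen by which mouse neutrophils are sorted, had 0.728, 61.2 and 24.3 CPM in the control and 1.30, 5.56 and 18.5 CPM in the degenerated libraries, and Retnlg, a resistin-like protein secreted by neutrophils, had 4.50, 565 and 275 CPM in the control and 44.5, 109 and 147 CPM in the degenerated libraries. Each of these 4 late or cytosolic genes was lowest in control library 1 and highest in control library 2, by 84.0-fold to 125-fold.

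Genes of primary granules were close to absent in control library 1. Mpo (chr11:87793581-87804413), the myeloperoxidase that neutrophil precursors make at the promyelocyte stage, stood at 1.46, 501 and 117 CPM in the control and 27.0, 21.7 and 167 CPM in the degenerated libraries. Prtn3, which encodes the serine protease proteinase 3 of the same granules, stood at 0.596, 150.2 and 57.3 CPM in the control and 12.04, 12.04 and 60.0 CPM in the degenerated libraries. The level in control library 2 exceeded that in control library 1 by 344-fold and 252-fold. Mpo was lower and Prtn3 nearly level in degenerated library 2 against degenerated library 1, whereas S100a8 and S100a9 were higher.

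Genes of secondary granules and of later secretion fell into a variable and a flatter set. Ngp, a cathelicidin-like granule protein, stood at 27.2, 3895 and 1366 CPM in the control and 132, 420.2 and 1252 CPM in the degenerated libraries, Chil3, a chitinase-like lectin, at 6.16, 1036 and 535 CPM in the control and 52.3, 176 and 427 CPM in the degenerated libraries, and Fcnb, the lectin ficolin B, at 0.397, 103 and 31.6 CPM in the control and 3.90, 7.40 and 34.4 CPM in the degenerated libraries. Ngp and Chil3 had the 3 highest libraries in the order of S100a8, and in Fcnb degenerated library 3 came before control library 3. Ngp, Chil3 and Fcnb had folds of 143, 168 and 260.1 between the highest and the lowest library. Ltf, the iron-binding lactotransferrin, stood at 151, 1132 and 620.4 CPM in the control and 72.7, 384 and 487 CPM in the degenerated libraries, and Lcn2, which binds bacterial siderophores, at 7.15, 48.5 and 33.4 CPM in the control and 19.4, 15.8 and 22.3 CPM in the degenerated libraries. Ltf and Lcn2 varied by 15.6-fold and 6.78-fold, less than every other neutrophil member, and Ltf was the 1 member of the lineage whose lowest library was degenerated library 1.

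S100a8 and Mpo mark the late and the early end of neutrophil maturation. The 250 bases before their RefSeq starts are shown (GRCm38.p6), S100a8 at chr3:90668821-90669070 (plus strand) and Mpo at chr11:87793534-87793783 (plus strand). Whether promoter motifs bear on the levels in the libraries was not tested. Capitals mark GAGGAA, an ETS (PU.1-type) motif, on either strand.
S100a8: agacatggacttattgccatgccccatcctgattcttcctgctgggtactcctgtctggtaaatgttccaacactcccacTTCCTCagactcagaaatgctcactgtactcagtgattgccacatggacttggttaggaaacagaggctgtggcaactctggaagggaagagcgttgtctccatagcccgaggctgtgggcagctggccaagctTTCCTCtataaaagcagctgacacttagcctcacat
Mpo: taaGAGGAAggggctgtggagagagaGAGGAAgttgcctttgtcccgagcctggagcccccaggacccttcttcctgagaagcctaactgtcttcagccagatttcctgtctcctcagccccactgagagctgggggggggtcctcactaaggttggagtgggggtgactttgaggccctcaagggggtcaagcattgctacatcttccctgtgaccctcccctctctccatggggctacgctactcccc
Both windows held GAGGAA at 2 places. With the 50 bases after the start included, 7 of 12 windows of the 11 neutrophil genes held it, as did 28.3% of all 32851 RefSeq promoter windows of that length, and the C/EBP letters TTGCGC or TTGCAA stood in 1 of 12 against 12.5%. Ly6g had 2 overlapping windows, and counted by gene these were 6 of 11 and 1 of 11.

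The erythroid genes were the most abundant of the 3 lineages in every library, at a summed 11552.7 to 111254 TPM (counts divided by the length of the listed transcripts and scaled to the same total in each library), against 452 to 34977 TPM for the neutrophil genes. Hbb-bs (chr7:103826534-103828096), an adult beta globin, stood at 2331, 15663 and 8474 CPM in the control and 2702, 1341 and 5811 CPM in the degenerated libraries. Hba-a1 and Hba-a2, both encoding adult alpha globin, stood at 2117, 14161 and 6766 CPM against 2374, 1129 and 5597 CPM and at 1875, 10408 and 5619.6 CPM against 1978, 963 and 4651 CPM, control against degenerated. The 3 globin genes were highest in control library 2, followed by control library 3 and degenerated library 3, and lowest in degenerated library 2, with 10.8-fold to 12.5-fold between the extremes. Alas2, the erythroid enzyme of the first step of haem synthesis, stood at 67.6, 324 and 202 CPM in the control and 65.7, 26.8 and 181 CPM in the degenerated libraries and had the same highest and lowest library, with 12.1-fold between them.

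The coding sequences of Hba-a1 and Hba-a2 are identical at 425 of 426 bases and those of Hbb-bs and Hbb-bt at 440 of 441, so how reads were shared among the copies is uncertain. The ratio of Hba-a1 to Hba-a2 in TPM was between 0.895 and 1.08 in the 6 libraries.

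Genes of the red cell membrane and their regulator varied far more than the globins. Slc4a1, the band 3 anion exchanger, stood at 8.67, 816 and 356 CPM in the control and 94.4, 19.6 and 465 CPM in the degenerated libraries. Epb42, which encodes a protein that ties band 3 to the membrane skeleton, stood at 0, 41.3 and 21.5 CPM in the control and 3.76, 0 and 24.4 CPM in the degenerated libraries. Klf1 (chr8:84901928-84905291), the erythroid transcription factor that binds CACCC boxes of globin and other red cell genes, stood at 0.132, 73.4 and 39.2 CPM in the control and 4.86, 2.04 and 26.8 CPM in the degenerated libraries. All 3 were highest in control library 2 and lowest in control library 1, which for Epb42 tied at a count of 0 with degenerated library 2. The highest library exceeded the lowest by 94.1-fold for Slc4a1 and by at least 196-fold for Epb42, reading 0 as 3 counts in the library. For Klf1 the ratio was 554, with a 95% counting interval of 153 to 4582, since control library 1 held 2 counts.

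Hbb-bs and Klf1, a globin and the most variable of the red cell genes, are shown over the 250 bases before their RefSeq starts, Hbb-bs at chr7:103827929-103828178 (minus strand) and Klf1 at chr8:84901732-84901981 (plus strand). Capitals mark AGATAA, the GATA motif, and CACCC, the KLF motif, on either strand.
Hbb-bs: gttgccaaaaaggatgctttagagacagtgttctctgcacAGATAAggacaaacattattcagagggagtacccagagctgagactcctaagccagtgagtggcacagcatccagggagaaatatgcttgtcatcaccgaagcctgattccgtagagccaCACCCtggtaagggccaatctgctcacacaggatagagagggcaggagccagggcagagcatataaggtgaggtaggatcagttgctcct
Klf1: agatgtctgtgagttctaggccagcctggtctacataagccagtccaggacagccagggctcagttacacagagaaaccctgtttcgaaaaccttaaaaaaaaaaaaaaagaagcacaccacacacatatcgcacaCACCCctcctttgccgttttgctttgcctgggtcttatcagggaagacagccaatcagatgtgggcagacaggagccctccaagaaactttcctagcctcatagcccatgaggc
AGATAA stood in 3 of 8 windows of erythroid genes and in 11.2% of all windows, and CACCC in 7 of 8 and in 57.5%, again with the 50 bases after the start. The windows of Hba-a1 and Hba-a2 were identical over 297 aligned bases.

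Tfrc, the transferrin receptor that brings iron into red cell precursors and most dividing cells, did not follow the other erythroid genes. It stood at 535, 660.3 and 712 CPM in the control and 367, 445 and 387 CPM in the degenerated libraries, the range over all libraries was 1.94-fold, and all degenerated libraries lay below all control libraries. Its Pearson r with the mean of the other erythroid members over the 6 libraries was 0.446. Each of the other erythroid genes, likewise left out of the mean, had 0.947 to 0.982.

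B cell genes were the least abundant, at a summed 75.0 to 984 TPM. Cd79a (chr7:24897381-24902197), the signalling chain of the B cell receptor, stood at 8.34, 165 and 39.9 CPM in the control and 24.8, 21.9 and 88.9 CPM in the degenerated libraries, and Ighm, the constant part of the IgM heavy chain, at 43.7, 577 and 135 CPM in the control and 91.6, 111 and 348 CPM in the degenerated libraries. Both were highest in control library 2 and lowest in control library 1, with degenerated library 3 second, and they varied by 19.7-fold and 13.2-fold. Ms4a1 (CD20), a surface protein of mature B cells, stood at 1.19, 68.3 and 21.4 CPM in the control and 6.91, 4.44 and 32.8 CPM in the degenerated libraries, and Cd22, an inhibitory co-receptor, at 2.32, 47.8 and 10.8 CPM in the control and 9.03, 5.56 and 28.5 CPM in the degenerated libraries. Vpreb3, which associates with immunoglobulin chains in B cell precursors, stood at 3.11, 46.1 and 7.08 CPM in the control and 6.29, 10.4 and 26.8 CPM in the degenerated libraries. Pax5, the factor that holds cells in the B lineage, stood at 1.99, 68.4 and 13.4 CPM in the control and 4.79, 12.5 and 51.9 CPM in the degenerated libraries. In all 6 of these genes degenerated library 3 was second to control library 2, whereas in 8 of the 11 neutrophil genes control library 3 was second.

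Ebf1, an early B lineage factor that stromal and fat precursor cells also express, differed from the rest. It stood at 2.58, 3.33 and 3.19 CPM in the control and 4.38, 4.65 and 4.18 CPM in the degenerated libraries, a range of 1.80-fold, and all degenerated libraries lay above all control libraries. In TPM, which weighs its listed transcripts by length, the values were 2.09, 2.302 and 3.45 in the control and 4.86, 4.78 and 3.26 in the degenerated libraries, and the groups overlapped. Its r with the mean of the other B cell members was 0.227.

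The window before the start of Cd79a at chr7:24897247-24897496 (plus strand) is shown for the signalling chain of the receptor. Capitals mark TCCCNNG, an EBF motif, and GAGGAA, on either strand.
Cd79a: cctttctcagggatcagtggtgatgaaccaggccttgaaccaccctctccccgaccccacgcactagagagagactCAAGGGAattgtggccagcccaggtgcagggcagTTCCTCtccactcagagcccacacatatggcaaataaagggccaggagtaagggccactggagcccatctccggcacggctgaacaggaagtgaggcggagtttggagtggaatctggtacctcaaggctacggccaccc
TCCCNNG stood in 5 of 6 windows of B cell genes and in 58.0% of all windows. The table held windows for 23 of the 26 members.

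Each library had its own amount of the 3 lineages. The summed CPM of the neutrophil members was 263, 14758 and 7298 in control libraries 1, 2 and 3 and 714, 2150.4 and 5178 in degenerated libraries 1, 2 and 3, a range of 56.2-fold. The erythroid sum was 6935, 42147 and 22189 in the control and 7590.1, 3926 and 17144 in the degenerated libraries, a range of 10.7-fold. The B cell sum was 63.2, 975 and 231 and 148, 170.4 and 581, a range of 15.4-fold. Together the 26 genes took 5.68% of the counts assigned to genes in control library 2 and 0.623% in degenerated library 2.

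A score was also formed for each lineage, the mean over its members of log2(CPM + 1) after subtracting each gene's mean over the 6 libraries, so that abundant genes did not dominate. Control library 1 was low in all 3 lineages, with scores of -3.39 (neutrophil), -1.59 (erythroid) and -1.80 (B cell). Control library 2 was the highest in all 3, with 2.58, 1.956 and 1.77. Control library 3 was high in the neutrophil (1.41) and erythroid (1.16) scores, and its B cell score of -0.03 was near the mean of the libraries. The gap between the 2 control libraries at the ends was 5.97 on the log2 scale for the neutrophil score.

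The degenerated libraries lay within the span of the controls except in the erythroid score. Degenerated library 1 was below the mean in all 3 lineages, at -1.38, -0.61 and -0.61. Degenerated library 2 had the lowest erythroid score of all, at -1.80, with a neutrophil score of -0.31 and a B cell score of -0.49. Control library 1 was close to it in the erythroid score, at -1.59. Of the 8 erythroid members, 4 (the globins and Alas2) were lowest in degenerated library 2 and 3 in control library 1. The score of the further erythroid genes described below was lowest in control library 1, at -1.08 against -0.79 in degenerated library 2. Degenerated library 3 was above the mean in all 3, at 1.10, 0.89 and 1.16.

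**Figure D2:**
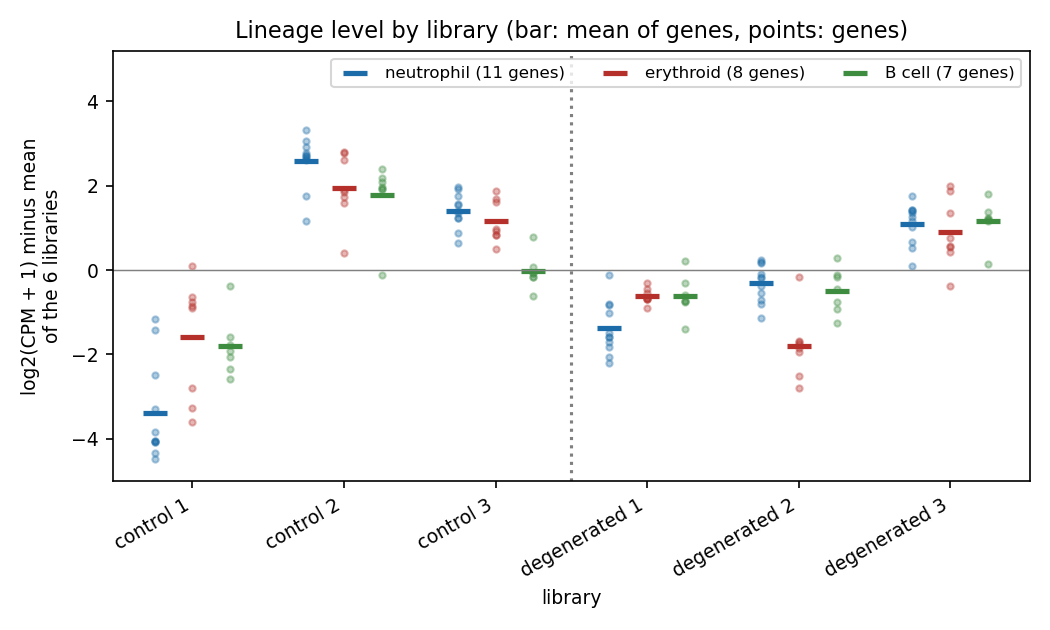
Level of the 3 lineages in each library, as log2(CPM + 1) minus the mean of the 6 libraries (vertical axis) against library (horizontal axis), where points are genes and bars the mean of the 11 neutrophil, 8 erythroid or 7 B cell genes. Control library 1 and control library 2 span the neutrophil scores from -3.39 to 2.58. Degenerated library 2 has the lowest erythroid score, at -1.80 against -1.59 in control library 1.

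The 3 lineages moved together in most libraries. Over the 6 libraries, whose points share the library and its composition on both axes, the neutrophil and erythroid scores had a Pearson r of 0.859 and a Spearman rho of 0.829, the neutrophil and B cell scores 0.925 and 0.943, and the erythroid and B cell scores 0.853 and 0.771. With each library taken relative to the mean of its own group, r was 0.886, 0.931 and 0.921. Without control libraries 1 and 2, r between the neutrophil and erythroid scores was 0.763 over 4 libraries and that between the neutrophil and B cell scores 0.708, and without degenerated library 2 and control library 2, r between the erythroid and B cell scores was 0.875. Leaving out 1 library at a time gave 0.781 to 0.998, 0.855 to 0.980 and 0.753 to 0.925, in the same order of pairs. The highest r was reached without degenerated library 2 in the pairs with the erythroid score, and without control library 3 for the neutrophil and B cell scores.

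**Figure D3:**
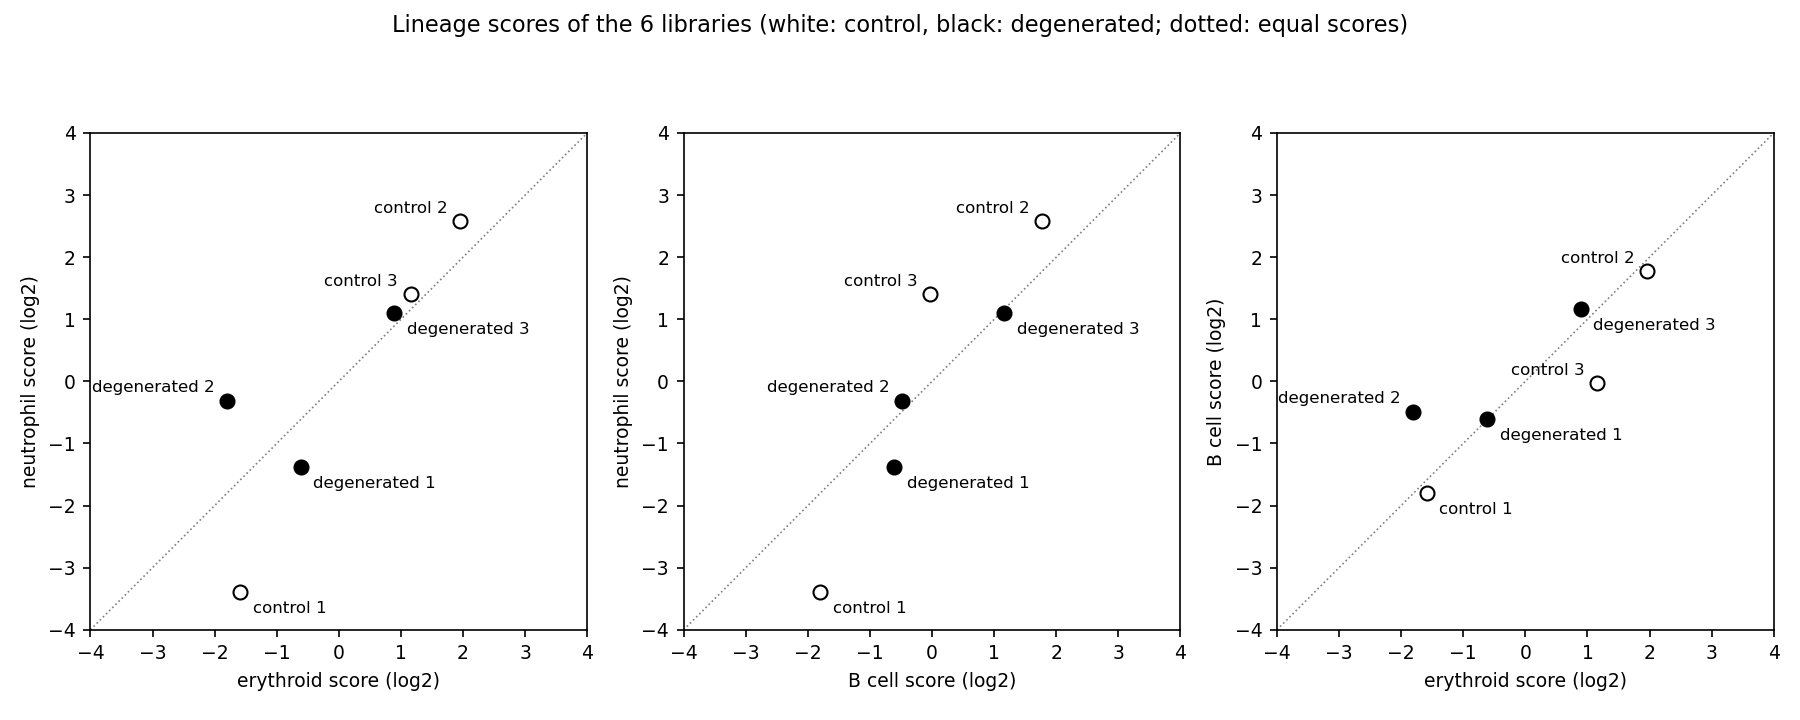
Scores of the lineages on the log2 scale plotted against each other for the 6 libraries, neutrophil against erythroid, neutrophil against B cell, and B cell against erythroid, with white points for control and black points for degenerated libraries. Degenerated library 2 lies above the dotted line of equal scores in the panels with the erythroid score, and control library 3 departs from it in the panels with the B cell score.

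Most genes followed their own lineage more closely than another. The median r between pairs of genes over the 6 libraries was 0.961 within the neutrophil genes (55 pairs), 0.906 within the erythroid genes (28 pairs) and 0.948 within the B cell genes (21 pairs). Between lineages it was 0.777 for neutrophil with erythroid genes, 0.874 for neutrophil with B cell genes and 0.770 for erythroid with B cell genes. A gene's highest r was with the score of its own lineage, formed without the gene itself, in 25 of 26 members. The exception was Ms4a1, with 0.948 for its own and 0.9503 for the erythroid score. Among the 25, the margin over the neutrophil score was narrow for Klf1 (0.957 against 0.947). Tfrc (0.446 against 0.391) and Ebf1 (0.227 against 0.215) followed no lineage closely.

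Ratios of levels per length showed where genes of a lineage did not keep in step. S100a9 over S100a8 in TPM was between 1.12 and 1.35 in all libraries, while each of these genes varied by 108-fold or more. Ltf over S100a8 was 1.00, 0.069 and 0.0593 in the control and 0.0838, 0.153 and 0.0816 in the degenerated libraries. Mpo over S100a8, early over late neutrophil RNA, was 0.0176, 0.0386 and 0.0167 and 0.037, 0.0126 and 0.0331, and the groups overlapped. Control library 1, with the least neutrophil RNA, therefore stood apart in Ltf and not in Mpo.

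Within the red cell genes, Alas2 over Hbb-bs varied by 1.53-fold, between 0.00677 and 0.0104. Slc4a1 over Hbb-bs was 0.000512, 0.00726 and 0.0058 in the control and 0.0048, 0.00201 and 0.0111 in the degenerated libraries, a range of 21.6-fold. Klf1 over Hbb-bs ranged over 82.3-fold and was lowest in control library 1. Alas2 thus kept in step with the globin, while Slc4a1 and Klf1 were lowest relative to it in control library 1, followed by degenerated library 2.

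The balance between lineages also differed by library. S100a8 over Hbb-bs was 0.0153, 0.246 and 0.286 in the control and 0.0762, 0.435 and 0.24 in the degenerated libraries, so that it was highest in degenerated library 2 and lowest in control library 1. Cd79a over Ighm, both of the B cell receptor, stayed between 0.222 and 0.346. Vpreb3 over Ms4a1, of precursor over mature B cells, was 11.6, 3.32 and 1.63 and 3.87, 10.6 and 4.02, highest in control library 1 and degenerated library 2, where Ms4a1 was lowest. The ratios there rest on few counts, 18 and 63 of Ms4a1 and 47 and 148 of Vpreb3.

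Between the groups, 25 of the 26 members had a lower mean level in the degenerated libraries, and 1 of 26, Tfrc, passed the criterion used here, a p under 0.01 before adjustment and a log2 fold change beyond 0.2 in either direction, in edgeR's quasi-likelihood test. The study states these limits for its comparison of knockout with wild type mice and none for the comparison of degenerated with control libraries. Of all 14118 genes tested, 2.73% passed the criterion, 2.01% as higher and 0.715% as lower. Adjusted over all genes by Benjamini-Hochberg, 0 genes passed 0.05 in edgeR, with 1367 at an unadjusted p under 0.05, whereas DESeq2 had 382. The median log2 fold change was -1.52 over the neutrophil, -1.20 over the erythroid and -0.46 over the B cell members, beside -0.003 over all genes tested. Standard errors of the members ranged from 0.15 to 2.15, the largest for Epb42, and all members passed the filter on low counts.

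S100a8 differed between the groups by -1.53 on the log2 scale (SE 1.42, edgeR adjusted p = 0.778), Hbb-bs by -1.43 (SE 0.80, edgeR adjusted p = 0.631) and Cd79a by -0.65 (SE 1.09, edgeR adjusted p = 0.876). None of these passed, and for each of these genes the highest and the lowest of the controls were further apart than the means of the groups. The difference of the mean scores, degenerated minus control, was -0.40 for the neutrophil genes, against standard deviations of 3.16 in the control and 1.25 in the degenerated libraries. For the erythroid genes it was -1.02, against 1.86 and 1.35, and for the B cell genes 0.04, against 1.79 and 0.99. The B cell score thus had the opposite sign to the median of -0.46 of its members.

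Single libraries set the direction in part. Without control library 2, the log2 fold change turned from below to above 0 in 8 members, from 0.08 for Slc4a1 to 1.58 for Pax5. In the other 18 members the sign stayed the same under this choice, and S100a8 had values of -2.42 to -0.76 over the libraries left out 1 at a time. Without control library 1, Lcn2 had a log2 fold change of -1.11 and passed the criterion (edgeR adjusted p = 0.293, and 0.293 to 0.982 over the alternatives).

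Tfrc fell by 0.67 on the log2 scale (SE 0.15, edgeR adjusted p = 0.307, DESeq2 adjusted p = 0.0154, and 0.0154 to 0.602 over the alternatives), from 636 ± 90.9 to 399.5 ± 40.9 CPM (SD, n = 3 and 3). Together with Ebf1, it was 1 of 2 members whose groups did not overlap, and the groups were apart in 17.7% of all tested genes, 7.37% with the degenerated libraries lower and 10.3% with them higher. The value of Tfrc depended on which of its transcripts were counted. The full-length coding transcript stood at 448, 482 and 321 CPM in the control and 265, 334 and 346 CPM in the degenerated libraries, and there the groups overlapped. A transcript with a retained intron stood at 81.3, 174 and 385 and 96.3, 99.2 and 31.4 CPM, and its value in control library 3 was the largest. Tfrc no longer passed in edgeR without control library 2 (log2 fold change -0.64), control library 3 (-0.59), degenerated library 1 (-0.62) or degenerated library 3 (-0.65). Ebf1 differed by 0.54 on the log2 scale (SE 0.28, edgeR adjusted p = 0.604).

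**Figure D4:**
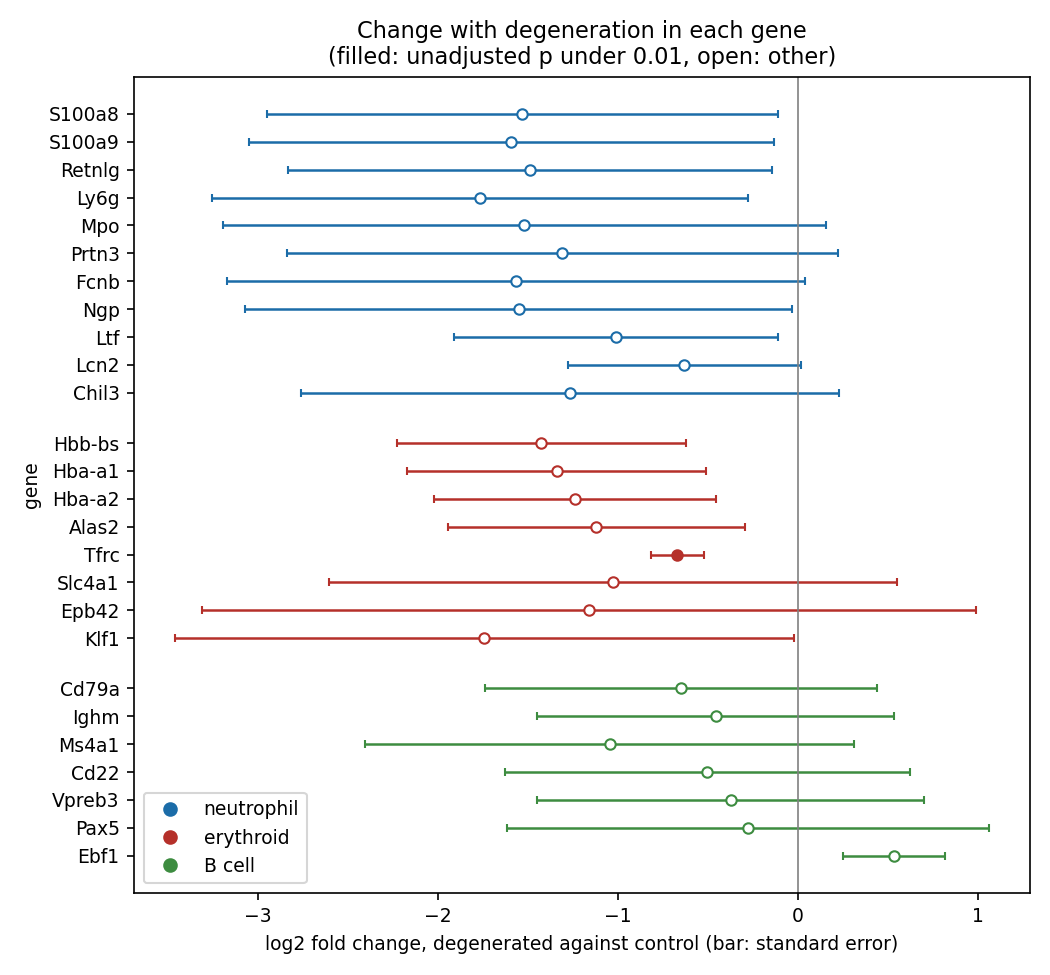
Change of each gene between degenerated and control libraries, as log2 fold change with its standard error (horizontal axis, edgeR, 3 against 3 libraries) for the 26 genes (vertical axis), coloured by lineage. Tfrc, with -0.67, is the 1 filled point and has the shortest bar, and the bars of other genes reach up to 2.15.

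Further genes of each lineage followed the same libraries. Of 40 further neutrophil genes, 30 had a row and 25 were tested, 21 of them with a log2 fold change below 0 and 0 past the criterion (0 at adjusted p under 0.05 in edgeR), and their median was -0.83. In 18 of the 25, control 2, control 3 and degenerated 3 were the 3 highest libraries. Csf3r, the receptor for the granulocyte growth factor G-CSF, ranged from 15.6 CPM in control library 1 to 193 CPM in control library 2, and Ncf1, a subunit of the NADPH oxidase, stood at 28.4, 247 and 130.5 CPM in the control and 46.2, 58.7 and 115 CPM in the degenerated libraries. Both had the order of the neutrophil members in their highest and lowest libraries. Mmp9, a gelatinase of tertiary granules, stood at 158, 414 and 178 CPM in the control and 50.3, 48.7 and 142 CPM in the degenerated libraries where control library 1 was the third highest. Anxa1, which neutrophils and other cells hold, ranged over 4.199-fold, and Cebpd, a factor of the acute response in several cell types, over 1.81-fold.

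Of 42 further erythroid genes, 31 had a row and 28 were tested, 24 of them below 0, with a median of -0.57. The same 3 libraries were highest in 18. Steap3, an iron reductase of the endosome, was the 1 gene that passed the criterion, and it was higher: it stood at 82.9, 105 and 73.8 CPM in the control and 140.0, 129 and 159.6 CPM in the degenerated libraries (log2 fold change 0.71, SE 0.17, edgeR adjusted p = 0.342). Its degenerated libraries all lay above its controls, whereas those of Tfrc lay below. Cpox, an enzyme of haem synthesis, ranged over 2.89-fold, and Tent5c, a poly(A) polymerase of red cell precursors and B lineage cells, over 3.55-fold. The widely expressed Prdx2 ranged over 1.46-fold, and Ank1 over 1.70-fold.

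Of 40 further B cell genes, 33 had a row and 25 were tested, 22 of them below 0 and 0 past the criterion, with a median of -0.72. Again 18 had the same 3 highest libraries. Spib, a factor of B cells, stood at 3.31, 149.99 and 22.3 CPM in the control and 10.7, 16.7 and 62.9 CPM in the degenerated libraries, and Myb, a factor of blood progenitors and early B cells, at 2.98, 140.2 and 38.6 CPM in the control and 14.2, 19.7 and 74.7 CPM in the degenerated libraries. Igkc, the constant part of the kappa light chain, stood at 49.8, 306 and 402 CPM in the control and 166, 304 and 355 CPM in the degenerated libraries. Unlike Ighm, Igkc was highest in control library 3 and was near that level in degenerated libraries 2 and 3. Cd24a and Akap12, which neurons and other cells of the tissue also express, ranged over 1.958-fold and 1.62-fold.

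Genes of dividing cells and of other blood cells moved with the members, and their part in the result was not tested. A list of proliferation genes, 16 with a row and 12 tested, summed to 50.2, 1186 and 564 CPM in the control and 176, 124 and 749 CPM in the degenerated libraries, with 10 of the 12 tested highest in control library 2, and its score had an r of 0.962, 0.963 and 0.933 with the neutrophil, erythroid and B cell scores. Mki67, an antigen of cycling cells, stood at 12.9, 539 and 244 CPM in the control and 84.3, 52.0 and 410.5 CPM in the degenerated libraries. A list of megakaryocyte and platelet genes, 11 with a row and 10 tested, summed to 58.4, 412 and 217 CPM and 104, 46.4 and 342 CPM, with an r of 0.875, 0.979 and 0.8995 with the neutrophil, erythroid and B cell scores. The sum of this list was lowest in degenerated library 2. Its score was lowest in control library 1, at -1.47 against -1.26 in degenerated library 2. Of the 10 tested genes, 7 were lowest in control library 1. The most abundant gene of the list was Itgb3, an integrin chain of platelets and osteoclasts, at 34.2, 142 and 67.3 CPM against 42.0, 19.7 and 139 CPM.

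The r of each further list is that of the mean score of its tested genes with the neutrophil, erythroid and B cell scores, in this order. The monocyte list (8 tested) had 0.969, 0.877 and 0.897, the NK cell list (6 tested) 0.884, 0.983 and 0.834 and the T cell list (12 tested) 0.821, 0.795 and 0.601. Their 9, 7 and 14 genes with a row summed in the control and degenerated libraries to 109 to 329.8 CPM and 119 to 233 CPM, 6.29 to 38.6 CPM and 7.18 to 21.8 CPM and 41.6 to 100.1 CPM and 48.0 to 81.5 CPM. Lists of macrophage and blood progenitor genes had values near or below 0. The progenitor list (8 tested, led by Kit) had -0.116, -0.376 and -0.369, and its 10 genes with a row summed to 236 to 299 CPM in the control and 184 to 251 CPM in the degenerated libraries. The macrophage list (8 tested, all those with a row) had -0.221, 0.034 and -0.0025 and summed to 554 to 673 CPM and 708 to 955 CPM, and C1qb, a chain of complement C1q, passed the criterion as higher (log2 fold change 0.69, SE 0.14, edgeR adjusted p = 0.297), as did C1qc. Of 10 genes of mast cells, basophils and eosinophils, 1 was tested, Ms4a2, at 0, 1.34 and 2.36 CPM in the control and 0, 0 and 1.34 CPM in the degenerated libraries.

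Lists of nerve and vessel cells and of cells of bone and fat differed among themselves. The SGN list had an r of -0.106, -0.314 and -0.359, and the Schwann cell list -0.610, -0.463 and -0.520. The endothelial list (7 tested) had -0.042, 0.261 and 0.171, and its 9 genes with a row summed to 202 to 254 CPM in the control and 205 to 242 CPM in the degenerated libraries. The osteoblast list (9 tested) had 0.443, 0.745 and 0.406, with 6 of 9 genes highest in control library 2, and its 10 genes with a row summed to 7204 to 9008 CPM and 6866 to 7627.7 CPM. Bglap, the bone protein osteocalcin, passed the criterion as lower, at 178, 419 and 285 CPM in the control and 86.9, 71.2 and 145 CPM in the degenerated libraries (log2 fold change -1.54, SE 0.40, edgeR adjusted p = 0.359), as did the related Bglap2. The adipocyte list (3 tested) had 0.553, 0.873 and 0.528, and the osteoclast list (6 tested) -0.170, 0.274 and -0.208. The hair cell list (9 tested) had -0.230, 0.208 and -0.245, and the skeletal muscle list (4 tested) 0.333, 0.490 and 0.044. In the SGN, hair cell and skeletal muscle lists, 2 of 14, 2 of 9 and 1 of 4 tested genes passed the criterion as lower, beside 0.715% of all genes tested. The r of the adipocyte list with the erythroid score lay within the range of those between the lineages, and the part of bone and fat cells in the result was not tested.

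**Figure D5:**
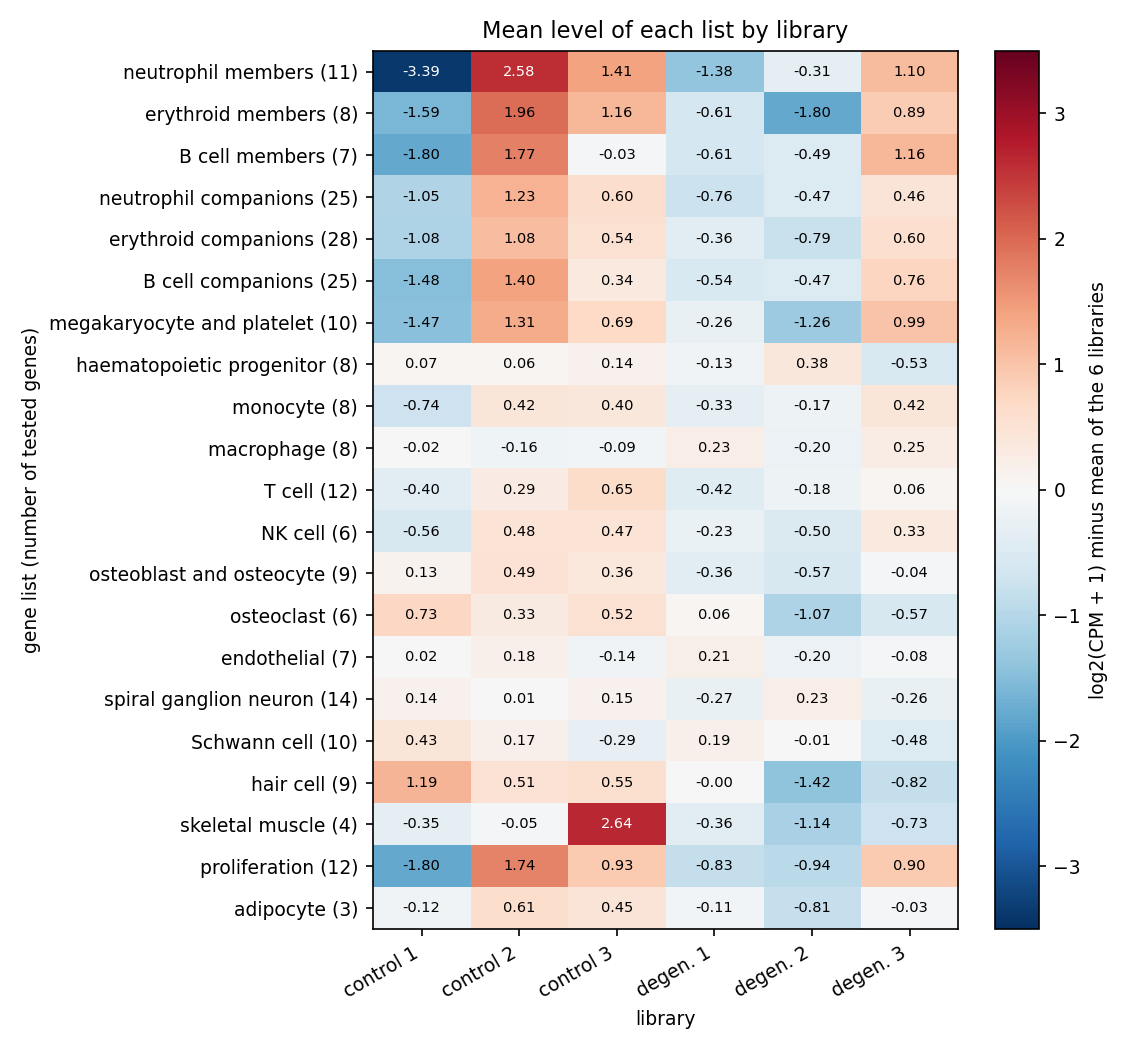
Mean level of each list of genes (rows, with the number of tested genes) in the 6 libraries (columns), as log2(CPM + 1) minus the mean of the 6 libraries, in colour and digits. The proliferation list runs from -1.80 in control library 1 to 1.74 in control library 2 like the members in the upper rows, and the endothelial list stays between -0.20 and 0.21.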

How the data were processed

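Total RNA of the cochlear modiolus was sequenced in 3 control and 3 degenerated libraries. Per the study's methods, reads were aligned with Hisat2 and expression was estimated with StringTie. The deposited table holds raw counts per Ensembl transcript, whole numbers that were not normalized. The submitters' processing notes also name Bowtie 0.12.2 and the builds mm8 and mm10 without a role. The sources used here do not give the annotation, the counting tool or the use of strand. The labels and the methods name different RNA extraction reagents.

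The table lists 65535 transcripts, 46.0% of those in GENCODE M21 (GRCm38). Counts of the 65272 that matched were summed per gene, and 263 others, with 0.125% of counts, were left out. Each column was matched to its sample by title. The test had been planned for counts per gene, so it was run on these sums.

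Degenerated libraries were compared with control libraries by the robust quasi-likelihood F test of edgeR 4.0.16 (R 4.3.3) after filterByExpr and TMM normalization, whose factors were 0.983 to 1.02, with no covariate. CPM used the TMM factors, scores a pseudocount of 1, and TPM the annotated length of the listed transcripts. For a fold against 0, 3 counts were put in its place, and intervals cover counting error only. The fit was tested on simulated data. DESeq2 1.42.0 and limma-voom (limma 3.58.1) were run beside it. Promoter windows were taken from RefSeq. Named genes are all members, the 5 most abundant tested genes of each list of further lineage genes, and genes of these lists past the criterion. Of the other lists, only some have a named gene, and not every gene of them past the criterion is named. The members and lists were chosen with earlier results of these data known. Hearing and histology were not analysed here.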

Additional observations from a re-analysis of the deposited data

How the results depend on the processing

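The count of genes called higher and lower in the degenerated libraries, 284 and 101 in edgeR, was 479 and 306 in DESeq2, 160 and 58 with the replicate number as a block, and 74 and 60 in genes with every transcript listed, of which 3420 were tested. It was 144 to 339 and 76 to 158 with 1 library left out. At an adjusted p under 0.05 there were 0, 382 in DESeq2, 3 in genes with every transcript listed, and 0 to 3 with 1 library left out. Deviations of same-numbered libraries had correlations of 0.160, -0.0905 and 0.0674, and those of differently numbered libraries -0.276 to 0.235. With 3 libraries a group, these values cannot decide whether replicate numbers paired the libraries. The r of 0.925 between neutrophil and B cell scores was 0.708 without control libraries 1 and 2.

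Of 372 values of members under alternatives, 337 kept their direction and side of the criterion, 4 (Tfrc) lost the call, 1 (Lcn2) gained it and 30, of 11 genes, had the opposite direction. In limma-voom these were Retnlg at 0.00856, Mpo 0.0444, Prtn3 0.22, Chil3 0.0543, Ighm 0.0157, Cd22 0.0786, Vpreb3 0.26 and Pax5 0.235. With the replicate block they were Mpo at 0.24, Prtn3 0.0493, Cd79a 0.14, Ighm 0.15, Cd22 0.35, Vpreb3 0.36 and Pax5 0.40. With 1 library left out they ranged from -3.09 to 0.28 for Mpo, -2.79 to 0.0814 for Slc4a1, -1.60 to 0.90 for Cd79a, -1.31 to 1.04 for Ighm, -2.42 to 0.37 for Ms4a1, -1.48 to 1.12 for Cd22, -1.17 to 1.503 for Vpreb3 and -1.69 to 1.58 for Pax5, each lowest without degenerated library 3 and highest without control library 2. Without control libraries 1 and 2, an alternative chosen after seeing the data, they were Cd79a at 0.19, Ighm 0.45, Cd22 0.41, Vpreb3 1.04 and Pax5 0.79, where the lone control is assumed to vary like the other libraries. Pax5 was also above 0 without degenerated library 1 (0.195) and without degenerated library 2 (0.018). The cause of the reversals was not tested. With 3 libraries a group and this spread, changes near or below the standard errors of the members were not detectable. Larger ones could also be missed, as Hbb-bs at -1.43 (SE 0.80) had an unadjusted edgeR p of 0.126.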
